A study of Mus musculus with 2 samples.

Results

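The mitochondrial carrier family was described in the whole colon of mice that lack the prostaglandin E2 receptor EP4 in the intestinal epithelium and of their controls. The members were all genes whose symbol starts with Slc25a together with the uncoupling protein genes Ucp1, Ucp2 and Ucp3. They were taken by name, and the family was chosen with earlier results of these data known. The reference gene table held 51 such genes, 50 of them protein-coding, and all 50 had at least 1 probe on the arrays (85 probes in all). Of these, 40 were well above background on at least 1 array and have a value, out of 14669 genes with a value among the 22909 genes with a named probe.

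There was 1 array for each of 2 genotypes on the C57BL/6 background. The control carried Villin-Cre, a transgene that makes Cre recombinase under the promoter of villin, a protein of the brush border of the intestinal epithelium. The second genotype carried Villin-Cre; EP4flox/flox (EP4 cKO), so that Cre was present in both groups and the floxed EP4 gene, Ptger4, in one. The mice were 8 weeks old by the study's methods, and the labels state that 3 pools of colon were combined for each array. The RNA was that of the whole colon, so cells in which Villin-Cre is not active were measured with the epithelium, and for every gene below a smaller number of cells of a type and less RNA per cell cannot be told apart.

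The proteins of this family sit mostly in the inner membrane of mitochondria. They share a repeated fold with a central cavity that opens in turn to the intermembrane space and to the matrix, and most of them exchange one metabolite for another. Together they let ADP, phosphate, citrate, malate, amino acids, acylcarnitines, nucleotides, cofactors and iron cross a membrane that is otherwise closed to them, and the uncoupling proteins carry protons or small anions. The absorptive cells of the colon are known to burn short-chain fatty acids, above all butyrate, in their mitochondria.

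The unit throughout is the scaled signal, the scanner's processed intensity after both arrays were set to the same trimmed mean of 2500, and ratios are EP4 cKO over Villin-Cre on the log2 scale. Where a pair of signals is given, that of the Villin-Cre-labelled array stands first. A gene is represented by its brightest probe. With 1 array per genotype there was no replicate check and no test was made, so the values hold for the arrays measured. The scanner software gives each spot an error, from which an error estimate of each log2 ratio was computed. Over the members measured on both arrays it was 0.204 at its smallest and at the median, and at most 0.28. For the brighter members 2 estimates were thus close to a fixed limit. Over probes with repeated spots the median SD of the log2 ratio was smaller, 0.035. The estimate covers the reading of a spot, not the spread between mice.

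Some facts of the whole series bear on these values, and shifts in the markers of cell types, some of them large, are given further below. On the Villin-Cre-labelled array 45.4% of the gene probes were well above background, and on the EP4 cKO-labelled array 51.6% were. Ptger4 had a scaled signal of 6227 on the Villin-Cre-labelled array and 5661 on the EP4 cKO-labelled array by its brightest probe, a log2 ratio of -0.14, so the deletion could not be seen in it and every direction below rests on the labels of the arrays. Where this probe lies relative to the deleted exons was not examined. The paper reports the loss of EP4 by qRT-PCR in isolated colon crypts, which is other material than the whole colon RNA of the arrays. The median log2 ratio over all genes with a value was -0.10.

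Across the family most carriers differed little between the arrays. Of the 37 members measured on both arrays, 29 (78.4%) lay within 1.5-fold, against 72.6% of all genes measured on both. The median log2 ratio of all 40, with bounds counted at their value, was -0.03, with quartiles of -0.25 and 0.21, where all genes had a median of -0.10 and quartiles of -0.45 and 0.18. The sign of the members' median was positive under each of 4 other scalings (0.063 to 0.10), which set the arrays to the same 75th percentile, to the same distribution after another background correction (normexp with quantile normalization), to a loess curve on mean signal, or to a trimmed mean over all spots, so no direction of the family as a whole is given.

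More than 2-fold higher on the EP4 cKO-labelled array were 2 members (5%), Slc25a20 and Slc25a22, where 4.86% of all genes with a value were. More than 2-fold lower were 3 members (7.5%), Slc25a36, Slc25a37 and Slc25a27, where 7.87% of all genes were. Both shares are near those of all genes, so the counts say nothing particular about the family, and the description below turns on the single carriers. Just inside the 2-fold limit were Slc25a16, with a log2 ratio of 0.90, and Slc25a29, with -0.87, and just outside it were Slc25a37 (-1.08) and Slc25a22 (1.21).

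**Figure D1:**
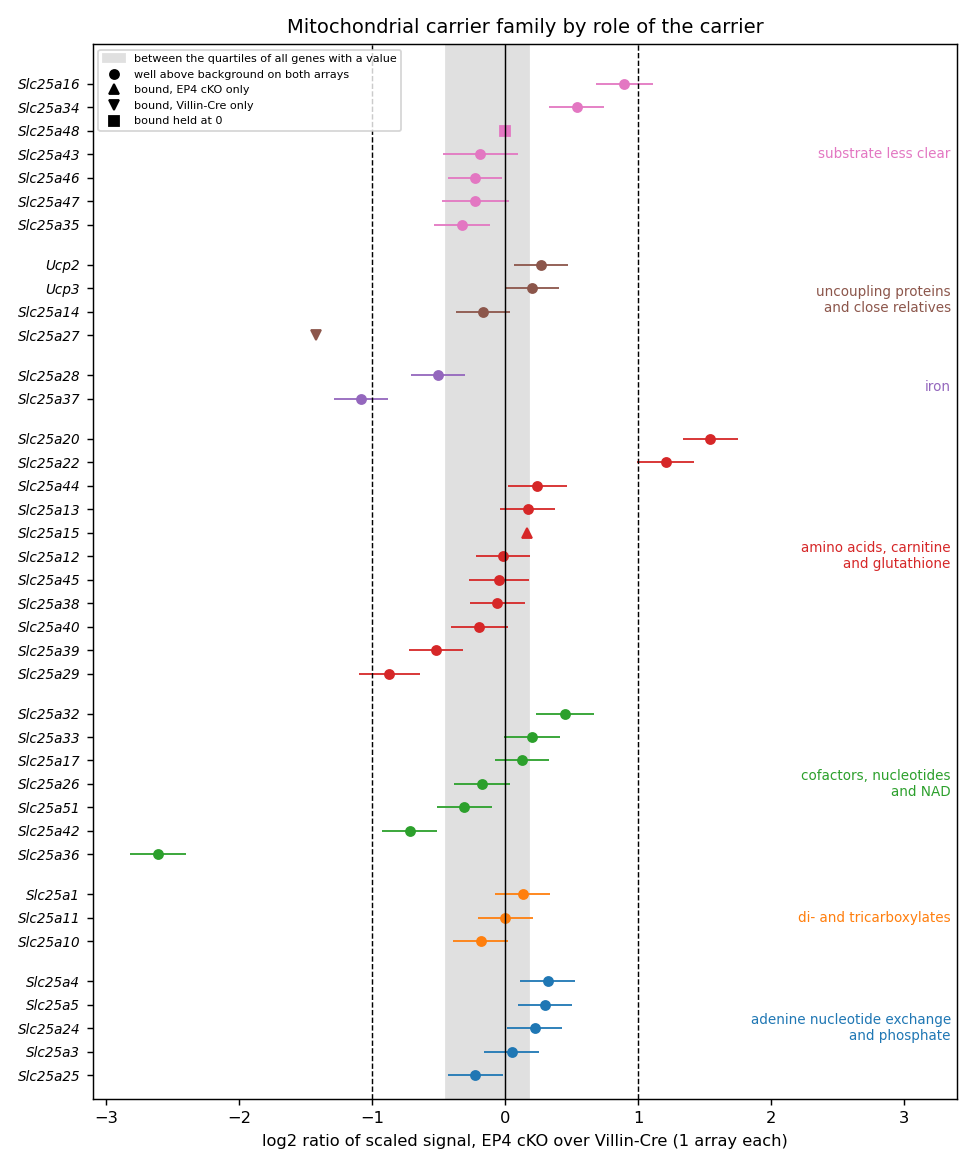
Log2 ratio of scaled signal (EP4 cKO over Villin-Cre, 1 array each) of the carriers reported singly, grouped by what they carry. Bars are the error estimate of the scanner software, the grey band lies between the quartiles of all genes, dashed lines mark 2-fold, triangles are bounds of genes well above background on 1 array and the square is a bound held at 0. Slc25a20 and Slc25a22 lie beyond the right dashed line and Slc25a36, Slc25a37 and Slc25a27 beyond the left one.

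Sequences are shown for the carriers with the largest difference in each direction, Slc25a20 and Slc25a36, so that the start regions of both can be read side by side. Each is the 250 bases before the start of the gene on its own strand, 5′ to 3′, from RefSeq on the assembly GRCm38.p6, at chr9:108661886-108662135 on the plus strand for Slc25a20 and at chr9:97111042-97111291 on the minus strand for Slc25a36. Capitals mark matches to the motifs named after them.
Slc25a20: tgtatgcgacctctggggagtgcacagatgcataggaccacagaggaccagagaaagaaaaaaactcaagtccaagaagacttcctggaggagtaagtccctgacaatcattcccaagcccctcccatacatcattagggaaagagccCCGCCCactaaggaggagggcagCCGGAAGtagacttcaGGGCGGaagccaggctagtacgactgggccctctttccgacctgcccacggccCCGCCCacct
Slc25a36: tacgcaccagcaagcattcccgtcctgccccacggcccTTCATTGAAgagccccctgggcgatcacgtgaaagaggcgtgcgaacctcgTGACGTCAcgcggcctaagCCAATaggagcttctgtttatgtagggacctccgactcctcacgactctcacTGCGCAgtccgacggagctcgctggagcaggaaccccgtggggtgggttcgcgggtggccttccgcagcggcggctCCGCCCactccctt

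The motifs were searched on both strands, and they were the cAMP response element TGACGTCA and the TGACG inside it, the nuclear receptor motif AGGTCA, the NRF1 core TGCGCA, the ETS site CCGGAAG, the GAS element TTCNNNGAA, the CCAAT box CCAAT and the GC box GGGCGG. EP4 is known to raise cAMP, and the cAMP response element is the sequence that CREB binds. The Slc25a36 window held TGACGTCA, at position -161 counted from the start, while the Slc25a20 window did not. This motif was found in the same 250 bases of 1.55% of 32851 start windows in the table, in 2.86% of those genes with a value that have a window, and in 2 of the 31 members with one, Slc25a36 and Slc25a25. Slc25a25, which is known as an inner membrane carrier for ATP-Mg and phosphate, had a log2 ratio of -0.22. The shorter TGACG was found in 17.8% of windows, 27.7% of genes and 10 members (32.3%). These included Slc25a36 (-2.61) and Slc25a16 (0.90), so it occurred in members of both directions. A part of cAMP in the difference of any carrier was not tested.

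Among all windows, each of the other matches of the 2 windows was more frequent than TGACGTCA. The Slc25a20 window had the ETS site, found in 6.91% of all windows, in 13.7% of genes with a value and in 5 of the 31 members (16.1%), and GC boxes, found in 32.7% of windows, 57.4% of genes and 22 members (71.0%). The Slc25a36 window also had a GC box and the NRF1 core, found in 6.43% of windows, 11.8% of genes and 2 members (6.45%). It had the GAS element, found in 7.02% of windows, 7.38% of genes and 2 members, and the CCAAT box, found in 33.8% of windows, 40.0% of genes and 14 members (45.2%). The windows had a GC content of 56.8% and 8 CpG sites for Slc25a20 and 64.4% and 24 CpG sites for Slc25a36. A match is a run of letters and not a site shown to be bound.

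The carriers of amino acids, carnitine and glutathione had the highest log2 ratio of the family. Slc25a20, the carnitine-acylcarnitine carrier that brings long-chain acyl groups into the matrix for oxidation, had a scaled signal of 4091 on the Villin-Cre-labelled array and 11918 on the EP4 cKO-labelled array. It was 2.91-fold higher, a log2 ratio of 1.54, at the 97.7th percentile of all genes with a value. Against the median of genes of similar brightness (10 groups), the ratio was 1.62. Its single probe lay between 1.51 and 1.70 under the 4 other scalings.

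The enzymes that work with Slc25a20 did not differ by as much. Of 11 genes of the carnitine shuttle and of acyl activation, 9 had a value and none was more than 2-fold higher or lower. They ran from -0.27 for Crot, the peroxisomal carnitine octanoyltransferase, to 0.35 for Acsl5, a long-chain acyl-CoA synthetase, with a median of -0.01. Cpt1a, which forms acylcarnitine at the outer membrane, had signals of 28234 and 32934, a log2 ratio of 0.22. Cpt2, which releases acyl-CoA on the matrix side, had 31819 and 28477, a log2 ratio of -0.16. Slc22a5, the carnitine transporter of the cell surface, had a log2 ratio of -0.04.

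Slc25a22, a glutamate carrier, was the other member more than 2-fold higher. By its brightest probe it had a scaled signal of 546 on the Villin-Cre-labelled array and 1261 on the EP4 cKO-labelled array, 2.31-fold higher, a log2 ratio of 1.21. Its second probe was well above background on the EP4 cKO-labelled array only, at 123 and 323, which bounds the log2 ratio at 1.36 or more. Its remaining probe, at 60.1 and 110, was also above background on that array only, and its bound did not exceed 1. The last probe thus gives no direction. With the mean of the probes in place of the brightest the log2 ratio was 0.86, within 2-fold, a mean that counts the last probe at 0.

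At the other end of the same list was Slc25a29, a carrier of basic amino acids, with signals of 531 and 291, a log2 ratio of -0.87. It lay at -0.33 after normexp with quantile normalization. The glutathione carrier Slc25a39 had signals of 52429 and 36573 and a log2 ratio of -0.52, and its second probe gave -0.57. Its relative Slc25a40 had 710 and 621, a log2 ratio of -0.19, which is less than its error estimate. Thus both probes of Slc25a39 were lower by a similar amount, while the difference of Slc25a40 stayed within its error estimate. With scaling to E1A control spots Slc25a39 was at 0.52 and Slc25a29 at 0.17, so that both turned in direction.

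The remaining carriers of amino acids lay close to 0. Slc25a12 and Slc25a13, the aspartate-glutamate carriers of the malate-aspartate shuttle, had log2 ratios of -0.01 and 0.17, Slc25a38, a glycine carrier used in heme synthesis, -0.06, and Slc25a45 -0.05. Slc25a44, a carrier of branched-chain amino acids, had 0.24 by its brightest probe and 0.62 by its second. Slc25a15, the ornithine carrier of the urea cycle, was above background on the EP4 cKO-labelled array only, at 94.0 and 140, so that it was at least 1.12-fold higher. On neither array were the ornithine carrier Slc25a2 and the second glutamate carrier Slc25a18 well above background.

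The genes around these carriers showed a few larger differences. Of 13 enzymes of the malate-aspartate and citrate shuttles, 2 were past 2-fold, both higher, and the median was -0.06. Me1, the cytosolic malic enzyme, was above background on the EP4 cKO-labelled array only, at 30.1 and 2195, which makes it at least 17.5-fold higher. Gpd2, the glycerol-3-phosphate dehydrogenase of the inner membrane, had signals of 2730 and 5758, a log2 ratio of 1.08. Of 10 genes of the urea cycle and of ornithine use, 8 had a value, and 1 was past 2-fold. This was Oat, the ornithine aminotransferase of the matrix, which was lower, with signals of 54821 and 17110, a log2 ratio of -1.68.

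The carriers of cofactors, nucleotides and NAD held the largest difference of the family, and it was downward. Slc25a36, a carrier of pyrimidine nucleotides, had a scaled signal of 2722 on the Villin-Cre-labelled array and 447 on the EP4 cKO-labelled array. It was 6.09-fold lower, a log2 ratio of -2.61, at the 1.24th percentile of all genes, and -2.43 against the median of genes of similar brightness. The probe is assigned to a predicted transcript of the gene. A second probe, assigned to its curated transcript, had 1676 and 613, a log2 ratio of -1.45. Both probes were past 2-fold and they differed in size. Under the 4 other scalings and with the mean of its probes the gene lay between -2.47 and -1.95.

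Its close relative Slc25a33, which also carries pyrimidine nucleotides, had signals of 1254 and 1442 and a log2 ratio of 0.20, within its error estimate of 0.21. Next to Slc25a36 in size was Slc25a42, a coenzyme A carrier, with 3570 and 2171 and a log2 ratio of -0.72. It was within 1.5-fold with scaling to the 75th percentile (-0.56) and after normexp with quantile normalization (-0.50), and at 0.33 with scaling to E1A control spots.

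The list of 8 cofactor and nucleotide carriers was measured in full on both arrays and had a median of -0.24. Slc25a51, the NAD carrier, had a log2 ratio of -0.31, and the peroxisomal carrier Slc25a17, which moves coenzyme A, FAD and NAD, had 0.13. The highest was Slc25a32, a carrier of folate and flavin, with signals of 553 and 755 and a log2 ratio of 0.45. Slc25a26, the S-adenosylmethionine carrier, had 1106 and 981, a log2 ratio of -0.17, by its brightest probe, while a dimmer probe with 142 and 166 gave 0.23. Its probes thus differed in sign, and neither difference exceeded its error estimate.

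Both iron carriers were lower on the EP4 cKO-labelled array, except that Slc25a28 was at 0.54 with scaling to E1A control spots. Slc25a37, or mitoferrin-1, which supplies iron for heme in developing red cells, had a scaled signal of 4834 and 2283, 2.12-fold lower, a log2 ratio of -1.08. Its second probe had 315 and 265, a log2 ratio of -0.25. Slc25a28, or mitoferrin-2, the form made in most other tissues, had 5908 and 4161, a log2 ratio of -0.51. Slc25a37 was within 2-fold under each of the 4 other scalings, from -0.96 to -0.93, and with the mean of its probes, at -0.67, so its place past 2-fold depended on these choices.

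Markers of red cells moved in the same direction as Slc25a37. Of 6 erythroid genes, 3 had a value (the hemoglobin genes Hba-a1 and Hbb-bt, and Alas2), and all 3 were more than 2-fold lower. Their summed scaled signal, with the genes not above background included, was 132414 on the Villin-Cre-labelled array and 4886 on the EP4 cKO-labelled array. Hba-a1 had 112282 and 4216, a log2 ratio of -4.74, Hbb-bt had a log2 ratio of -5.01, and Slc4a1, the anion exchanger of the red cell membrane, was above background on neither array. Hbb-bs had no named probe. The part of the red cells in the lower Slc25a37 was not tested.

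Of 19 genes of heme synthesis and iron-sulfur assembly, all had a value, with a median of -0.19. Alas2, the first enzyme of heme synthesis in red cells, was the member past 2-fold, at 506 and 13.9, at least 8.75-fold lower. Alas1, its form in other tissues, had 44633 and 53451, a log2 ratio of 0.26. Fech, which puts iron into heme, had -0.24.

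The uncoupling proteins and their close relatives differed mainly in whether they were seen. Ucp2, which is made in many tissues and in immune cells, had a scaled signal of 7628 and 9186 by its brightest probe, a log2 ratio of 0.27, and 4796 and 4632, a log2 ratio of -0.05, by its second. Ucp3, known mainly from muscle, had 8590 and 9872, a log2 ratio of 0.20. Neither differed by more than 2 error estimates. Slc25a14 had a log2 ratio of -0.17. Ucp1, the proton carrier of brown fat, and Slc25a30 were above background on neither array.

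Slc25a27, known as a brain uncoupling protein, was above background on the Villin-Cre-labelled array only, with 155 and 39.9, so that it was at least 2.68-fold lower. Its 2 other probes were not above background on either array. The value lay near the floor of that array, 125, and after normexp background correction with quantile normalization the log2 ratio was -0.43, within 2-fold. Of 9 marker genes of enteric neurons and glia, 3 had a value and 1 was more than 2-fold lower, Uchl1 at -1.43. The summed signal of that list was 4099 and 2077. The part of nerve cells in the lower Slc25a27 was not tested.

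Markers of fat and muscle were read beside Ucp1 and Ucp3. Of 7 adipocyte genes 2 had a value, with a summed signal of the list of 1088 and 5497. Cidec, a lipid droplet protein, was at least 36.6-fold higher, and Lep, the other gene with a value, was at -0.04, so that the rise of the sum was that of Cidec. The defining genes Adipoq and Plin1 and the brown fat gene Cidea were not above background. Of 6 skeletal muscle genes 4 had a value, the largest log2 ratio was 1.97 for Acta1, and the summed signal was 683 and 1507. Ckm and Myh1 were not above background, so the defining markers of both tissues were seen in part or not at all.

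**Figure D2:**
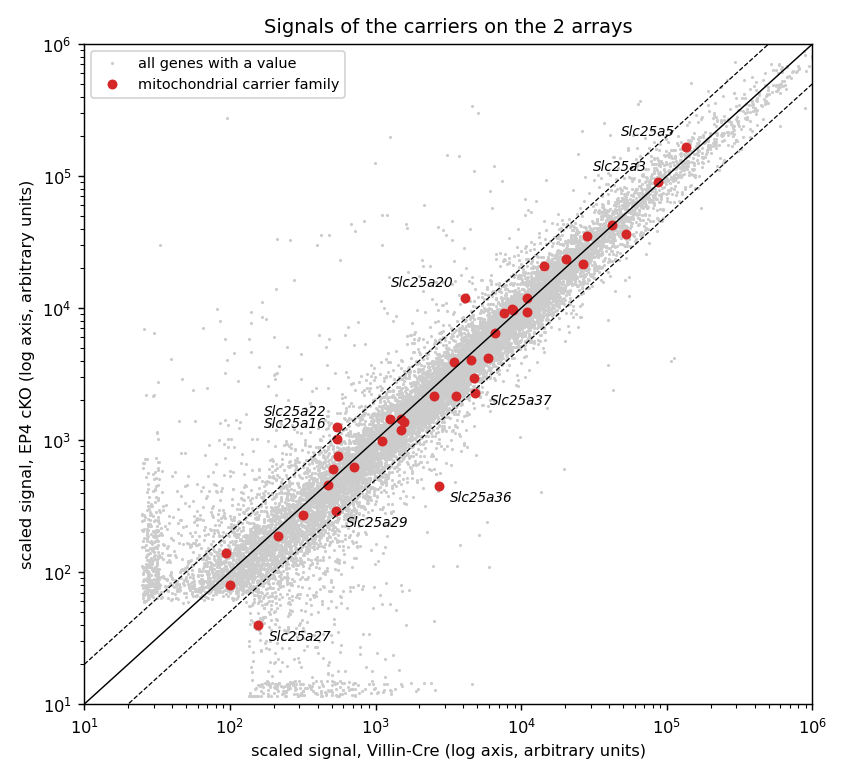
Scaled signal on the EP4 cKO array against that on the Villin-Cre array, both on log axes in arbitrary units, for all 14669 genes with a value (grey) and the 40 carriers (red). The solid line is equality and the dashed lines are 2-fold; bounds are drawn at their measured signals. The carriers run from about the floor of the arrays to a signal of 134891 for Slc25a5 on the Villin-Cre array, and most lie along the solid line.

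The adenine nucleotide and phosphate carriers, which serve ATP synthesis in every cell, differed little. Slc25a5 and Slc25a4, the ADP/ATP translocases, had scaled signals of 134891 and 166256, a log2 ratio of 0.30, and of 28163 and 35143, a log2 ratio of 0.32. Slc25a3, the phosphate carrier, had 87126 and 90073, a log2 ratio of 0.05, and both of its probes gave that value. Slc25a24, a carrier of ATP-Mg and phosphate regulated by calcium, had 0.22, and its relative Slc25a25 had 2516 and 2155, a log2 ratio of -0.22. The list thus ran from -0.22 to 0.32 with a median of 0.22, and none of its 5 measured members was past 1.5-fold. Slc25a23, Slc25a31, Slc25a41 and Slc25a54 were above background on neither array.

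The carriers of di- and tricarboxylates were as even. Slc25a1, the citrate carrier that exports citrate for lipid synthesis, had signals of 8813 and 9648, a log2 ratio of 0.13, and -0.05 by its second probe (2313 and 2228). Slc25a11, the oxoglutarate-malate carrier, had 42234 and 42296, a log2 ratio of 0.00, and a second probe at 9788 and 8304 gave -0.24. Slc25a10, the dicarboxylate carrier, had 1558 and 1371, a log2 ratio of -0.18. None of these differed by more than 2 error estimates, and Slc25a21, the oxodicarboxylate carrier, was not above background on either array.

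Among the members whose substrate is less clear, 2 were higher and the others near or below 0. Slc25a16, which has been linked to coenzyme A, had signals of 545 and 1015, a log2 ratio of 0.90, within 2-fold here and past it under 3 of the 4 other scalings (up to 1.11). Slc25a34 had 14334 and 20795, a log2 ratio of 0.54, by its brightest probe and 312 and 254, a log2 ratio of -0.30, by its second, so that its probes differed in sign. Slc25a46, a protein of the outer membrane, had 10976 and 9396, a log2 ratio of -0.22, and a dimmer probe at 242 and 309 gave 0.35.

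The lowest of that list was Slc25a35, with 1498 and 1197, a log2 ratio of -0.32. Slc25a47, known from the liver, had -0.23 and Slc25a43 -0.19, both within their error estimates. Slc25a48 was above background on the EP4 cKO-labelled array only, with 99.4 and 80.0. Its bound did not exceed 1 and it was counted at a log2 ratio of 0. Slc25a53 was not above background on either array.

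**Figure D3:**
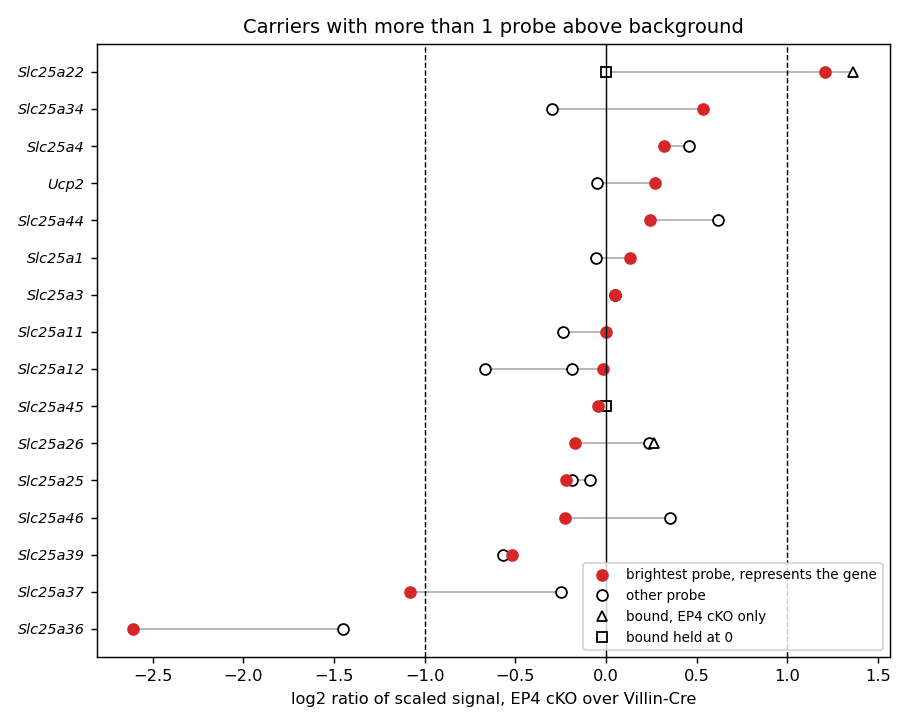
Log2 ratio (EP4 cKO over Villin-Cre) of every probe well above background on at least 1 array, for the carriers reported singly that have more than 1 such probe. Filled red points are the brightest probe, which represents the gene, open points are the others, triangles and squares are bounds, and dashed lines mark 2-fold. Slc25a36 is past 2-fold by both probes, Slc25a37 and Slc25a22 by their brightest and not by all of their others.

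Different probes of a carrier could be set against each other in 15 members with more than 1 probe above background on both arrays. In 6 of these the probes differed in sign: Slc25a1, Slc25a11, Slc25a26, Slc25a34, Slc25a46 and Ucp2. None of the 6 was past 1.5-fold by its brightest probe. The members with the same sign in all such probes included Slc25a36, Slc25a37 and Slc25a39, each lower, and Slc25a4 and Slc25a44, each higher. The probes of Slc25a36 still differed by 1.16 and those of Slc25a37 by 0.83 on the log2 scale, so the size of the difference of each was less certain than the error estimate says.

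By the error estimate of the scanner software, 12 of the 37 members measured on both arrays differed by more than 2 estimates, and 25 did not. For the brighter members this is close to a fixed limit on the ratio. Higher were 5 (13.5%), where 13.1% of all genes measured on both arrays were, and lower were 7 (18.9%), where 26.8% of all genes were. These shares of the family are near or below those of all genes. The higher ones were Slc25a20, Slc25a22, Slc25a16, Slc25a34 and Slc25a32. Among the lower ones were Slc25a36, Slc25a37, Slc25a29, Slc25a42, Slc25a39 and Slc25a28. Under the 4 other scalings, which raised the median of all genes, 29 of the 37 kept their sign, and the 8 that did not (Slc25a11, Slc25a12, Slc25a26, Slc25a38, Slc25a40, Slc25a43, Slc25a45 and Slc25a47) all had small ratios.

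The 10 members not above background on either array were Slc25a2, Slc25a18, Slc25a21, Slc25a23, Slc25a30, Slc25a31, Slc25a41, Slc25a53, Slc25a54 and Ucp1. Their 14 probes had scaled signals from 25.7 to 101 on the Villin-Cre-labelled array and from 11.7 to 55.9 on the EP4 cKO-labelled array, so no fold is given for any of them. Several have known homes elsewhere, such as Slc25a31, the ADP/ATP translocase of the testis, and Ucp1.

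Carriers that lie next to each other in the genome did not share large differences. The neighbouring pair Slc25a29 and Slc25a47 on chromosome 12 had log2 ratios of -0.87 and -0.23, and Ucp3 and Ucp2 on chromosome 7 had 0.20 and 0.27. Slc25a43 and Slc25a5 on chromosome X had -0.19 and 0.30. In the pair of Slc25a54 and Slc25a24 on chromosome 3 and in that of Slc25a41 and Slc25a23 on chromosome 17, at least 1 gene had no value.

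Compared with the respiratory chain of the same membrane, the family was spread more widely. The 89 measured subunits of the respiratory chain and ATP synthase had the same median, -0.03, but 95.5% of them lay within 1.5-fold against 77.5% of the carriers with bounds counted at their value, none was more than 2-fold higher and 2 (2.25%) were lower. Their lowest was Cox8b, at -2.54, and their highest Cycs, cytochrome c, at 0.85. The 228 measured members of all other solute carrier families were spread more widely than the mitochondrial ones. Their median was -0.09, 64.0% lay within 1.5-fold, 14 (6.14%) were more than 2-fold higher and 23 (10.1%) lower, from Slc30a10 at -3.03 to Slc9a3 at 3.49. The carriers thus lay between these sets in spread, which is a description and was not tested. The sets also differ in brightness. On the Villin-Cre-labelled array the 90 listed genes of the respiratory chain had a summed signal of 1.09e+07. The 9 listed adenine nucleotide and phosphate carriers, the brightest role list of the family, had 273131. The part of brightness in the difference of spread was not tested.

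**Figure D4:**
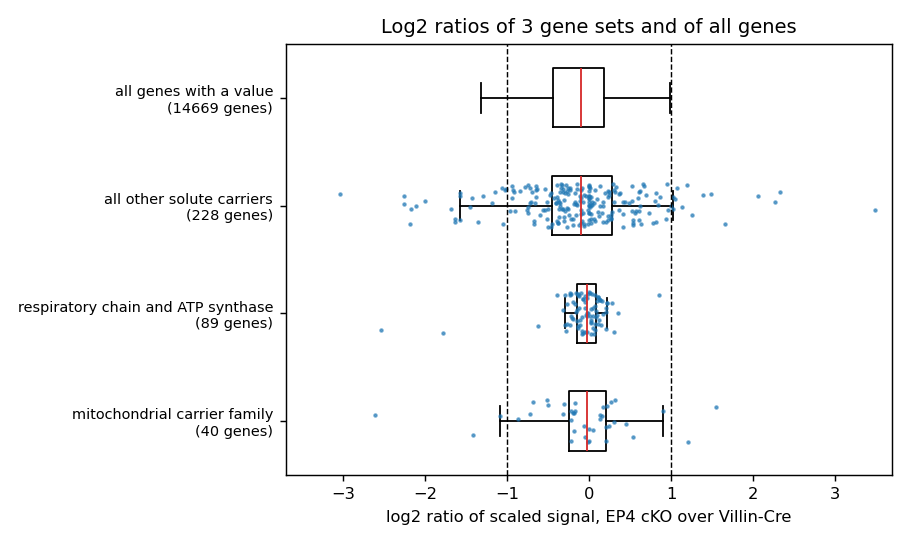
Log2 ratios (EP4 cKO over Villin-Cre) of the mitochondrial carrier family, the respiratory chain and ATP synthase, all other solute carriers and all genes with a value. Boxes run between the quartiles with the median in red, whiskers the 5th and 95th percentiles, points single genes and dashed lines 2-fold. The whiskers of the carriers reach from -1.10 to 0.91, those of the respiratory chain from -0.31 to 0.22 and those of the other solute carriers from -1.57 to 1.04.

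The machinery that places carriers in the inner membrane was close to even on the arrays. All 16 genes of the import path, which runs from the TOM complex over the small TIM chaperones to the TIM22 complex, had a value and none was past 2-fold. They ran from -0.33 for Tomm7 to 0.20 for Timm10b, with a median of 0.04. Timm22, which forms the insertion channel, had signals of 5036 and 5219, a log2 ratio of 0.05. Vdac1, Vdac2 and Vdac3, the channels of the outer membrane, had 0.06, 0.38 and -0.33, and Tspo, an outer membrane protein that binds cholesterol and porphyrins, had 0.85. The fifth gene listed with them, Bcap31, encodes a protein of the endoplasmic reticulum and had -0.21.

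Other inner membrane transporters held 1 gene past 2-fold in 19 with a value. It was Sfxn3, of the sideroflexin family of amino acid carriers, with 11513 and 5536, a log2 ratio of -1.06. The sideroflexins Sfxn1, which carries serine, Sfxn2 and Sfxn5 had -0.64, -0.86 and -0.91, so that all 4 measured sideroflexins were lower, under the 4 other scalings too (Sfxn3 then within 2-fold, from -0.99 to -0.90), whereas scaling to E1A control spots left only Sfxn3 below 0, at -0.01. Sfxn4 was not above background. Mpc1 and Mpc2, which form the pyruvate carrier, had 0.10 and 0.15, and Mcu, the calcium channel, had 0.22. The median of that list was 0.15. It also held Mtch1 and Mtch2, relatives of the carriers that sit in the outer membrane, which had -0.45 and -0.06.

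Regulators of mitochondrial biogenesis were also within 2-fold. All 16 had a value, from -0.74 for Ppargc1b to 0.50 for Pparg, with a median of -0.19. Ppara, a nuclear receptor of fatty acid oxidation genes with Slc25a20 among its known targets, had signals of 2526 and 1523, a log2 ratio of -0.73. Ppargc1a, the coactivator that drives biogenesis, had 5237 and 5999, a log2 ratio of 0.20. Esrra and Nrf1, which act with it, had 0.06 and 0.02.

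Markers of other cell types also differed between the arrays. All 11 genes of the absorptive epithelium of the colon had a value, 2 were more than 2-fold higher (Krt20 at 1.80, and Aqp8, with signals of 236302 and 473610, just past it), Car1 was the lowest at -0.42, and their summed signal was 1551490 and 2264300. All 7 goblet cell genes had one too, from -0.75 for Tff3 to 1.31 for Clca1, with a median of 0.35 and a summed signal of 1707300 and 2275700, and Muc2 was at -0.06. Of 6 fibroblast genes 5 had a value and all 5 were more than 2-fold lower, with a summed signal of 12957 and 304 and Dcn, a matrix proteoglycan, at -5.77. The others were the collagen genes Col1a1, Col1a2 and Col3a1 and the proteoglycan gene Lum. Of 7 smooth muscle genes 6 had a value and 1 was past 2-fold, Cnn1 at -2.73. Smtn was at -0.59, Acta2, Actg2 and Tagln were at 0.62, 0.72 and 0.38, and the summed signal of the list was 33007 and 47404. No macrophage gene (6 of 8 with a value) was past 2-fold, and the list ran from -0.79 for Csf1r to 0.88 for Cd14, with a summed signal of 63562 and 87932. Of 6 T cell genes with a value 1 was past 2-fold, Cd3g at 1.28, while Cd3d and Cd3e of the same receptor complex were at -0.79 and -0.10. The list had a median of -0.01 and a summed signal of 12938 and 13396. Of 6 B cell genes 2 had a value, none past 2-fold, with Jchain the furthest at 0.21 and a summed signal of 382 and 420.4. How much of the difference of any carrier goes with these shifts was not tested.

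The carriers measured on both arrays with the largest log2 ratios, 3 higher and 2 lower, were followed through each way of processing. Slc25a27, which has only a bound, is not among them and ran from -2.29 with loess to -0.43 after normexp with quantile normalization. The choice of probe could not change Slc25a20 and Slc25a16, which have 1 probe each, and the filters on dim probes could not change any of the 5 shown. Slc25a22 ran from 0.86 to 1.41 and Slc25a37 from -0.96 to -0.67 over the 4 other scalings and the mean of the probes. The E1A control spots are designed to read a spiked-in RNA, and whether one was added is not given in the sources used here. Scaling to them, a setting chosen after seeing the data, raised the median of all genes above background on both arrays by 1.04. With it Slc25a20 stood at 2.59, Slc25a36 at -1.56 and Slc25a37 at -0.04. Slc25a36 was thus lower and Slc25a20 higher by more than 2-fold under every scaling tried.

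**Figure D5:**
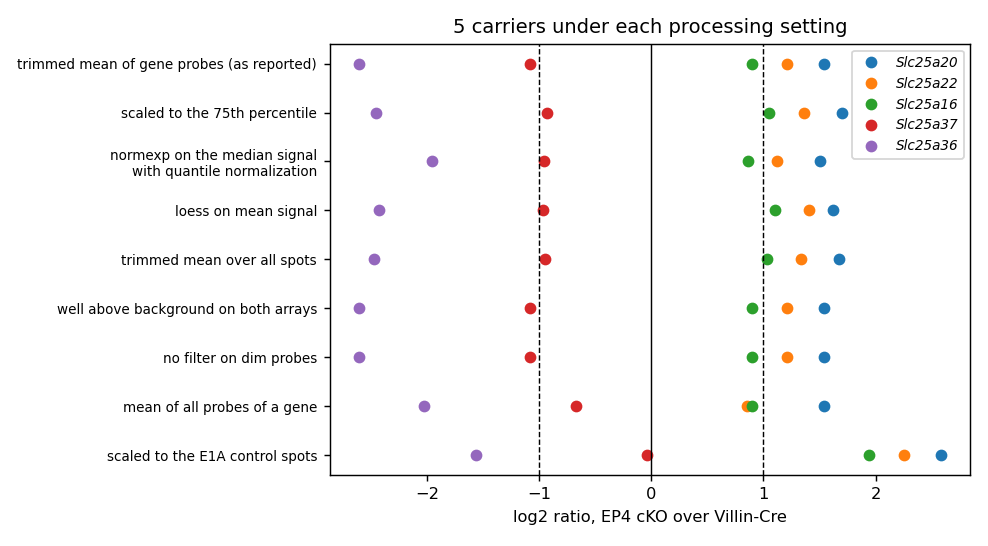
Log2 ratio (EP4 cKO over Villin-Cre) of 5 carriers under the reported processing and each alternative, 1 row per setting, with dashed lines at 2-fold. Slc25a20 and Slc25a36 are past 2-fold in every row, Slc25a22 in every row except the mean of all probes, and above the bottom row Slc25a16 lies close to the right line and Slc25a37 near the left one. The bottom row, scaling to the E1A control spots, lies to the right for all 5.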

How the data were processed

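Gene expression was measured in whole colon RNA on 1-colour (Cy3) Agilent SurePrint mouse arrays, 1 per genotype, grouped by the labels. The labels describe 3 pools of colon per array and the paper n = 3. Other arrays were not analysed here. The authors deposited the scanner software's intensity of each spot, after background subtraction and detrending but before any scaling between arrays, with its error (Feature Extraction 12.0.3.1 in the file header, 11.5.1.1 in the submitters' processing notes). From these, control spots and spots flagged as outliers (147 for Villin-Cre, 126 for EP4 cKO) were removed, spots of a probe were averaged, and each array was scaled to a trimmed mean of 2500 after removing 2% at each end (factors 3.45 and 2.68), as in the study's methods. No spot was saturated. The members' probes had 1 spot each. Over 278 probes with repeated spots, the median SD of the log2 ratio was 0.035.

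Each array held 62976 spots. Probes were named through their RefSeq accession with the gene table of GRCm38.p6, which matched 32989 of 56593 probes (58.3%). The grid refers to an older assembly, so no probe position is given. The brightest probe had the highest mean log2 signal. A probe above background on 1 array had the signal of its dim side raised, where it was lower, to the lowest one above background there (125 for Villin-Cre, 57.8 for EP4 cKO), giving a bound ("at least"), and a bound not above 1 was set to 0.

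No test was made, and no sample could be left out, since each genotype had 1 array. The members, gene lists, tests and named genes were chosen with earlier results of these data known, and the motifs after the values were seen. Both signals are given for members past 1.5-fold, with a bound or with probes of opposite sign, and for the extremes of each role list. From the pathway lists genes past 2-fold were named and from the marker lists the gene with the largest ratio, and any other gene was chosen after its values were seen. The values were also computed in 7 other ways: 75th percentile scaling, normexp (offset 50) with quantile normalization, loess (span 0.3), a trimmed mean over all spots, dim probes kept, only genes measured on both arrays, and the mean of all probes. Thresholds of 1.5-fold and 3-fold were also used. Normexp, meant for the mean pixel signal of each spot, was run on the median pixel signal. Some single genes are counted in their lists and not reported here by name. The steps were tested on simulated data. R 4.3.3 with limma 3.58.1 was used for normexp, and Python 3.11.15 (numpy 2.4.6, pandas 2.3.3, statsmodels 0.14.6, matplotlib 3.10.9) for the rest.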

Additional observations from a re-analysis of the deposited data

How the results depend on the processing

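Having 2 arrays limits the precision, and no fold can be had for genes below the floor. The median log2 ratio of the members, -0.03 as reported, was 0.10 with scaling to the 75th percentile, 0.063 after normexp with quantile normalization, 0.083 with loess, 0.080 with a trimmed mean over all spots and -0.18 with no filter on dim probes (50 members). Those 4 scalings raised the median of all genes above background on both arrays by 0.16, 0.11, 0.13 and 0.13, and relative to the median of all genes the members lay at 0.07 as reported and between 0.06 and 0.10 under them. Among all genes, 6.39% were then more than 2-fold higher and 6.18% lower with the 75th percentile, against 4.86% and 7.87%. Of the members, 3 were higher and 2 lower with the 75th percentile, with loess and with the trimmed mean over all spots, against 2 and 3. The members more than 2-fold lower numbered 1 after normexp (2.67% of all genes were), 11 of 50 with no filter (31.5% of all genes; 8 of the 11 above background on neither array), 6 at 1.5-fold (18.6% of all genes) and 1 at 3-fold (3.63%), against 3. Those more than 2-fold higher numbered 1 with the mean of all probes (4.57% of all genes) and 0 at 3-fold (2.21%), against 2. Scaling to the E1A control spots, chosen after seeing the data, raised that median of all genes by 1.04 and gave a median of 0.99, 19 members higher and 1 lower, where 39.6% of all genes were higher and 2.26% lower. Which scaling is right cannot be told from 2 arrays, and the cause of these changes was not tested. No paired analysis was possible because each genotype had 1 array.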
